A study of Mus musculus with 9 samples.

Results

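Toll-like receptors are the pattern receptors with which macrophages sense microbial lipids, proteins and nucleic acids. Tlr1, Tlr2, Tlr4, Tlr5 and Tlr6 act at the cell surface, where Tlr2 pairs with Tlr1 or Tlr6 to bind lipopeptides, Tlr4 with its partner Ly96 binds lipopolysaccharide and Tlr5 binds flagellin. Tlr3, Tlr7, Tlr8, Tlr9 and the mouse receptor Tlr13 act in endosomes, where they sense double-stranded RNA, single-stranded RNA, unmethylated DNA and bacterial ribosomal RNA, and their ligand-binding parts are trimmed there by proteases. Both classes signal through the adaptors Myd88 or Ticam1 to NF-kB and interferon regulatory factors.

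The RNA of these 10 receptors was measured by 14 of the 55681 probes of 9 Agilent 1-colour mouse arrays, which were all the probes that carry their names. The cells were peritoneal macrophages of male mice, gated in a flow sorter on CD45 and F4/80, in 3 groups of 3 arrays. Group M was made of macrophages that had migrated and were collected from the upper chamber of a Transwell in co-culture with CT-26, a mouse colon carcinoma line. Group T was kept with CT-26 cells in the lower chamber for 24 h, and group Ctrl was cultured without them in regular medium for 24 h. No time is given for M. A label field calls the T cells migratory, against the titles and the design text, and the groups here follow the titles. Whether the 3 arrays of a group stand for different animals or cultures is not given, and the p-values reflect array-to-array spread, which may be technical.

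Levels are given as log2 of the processed signal minus the 75th percentile of that array, here called the relative log2 signal. A value of 0 is the 75th percentile, and a level is compared between arrays for the same probe only. Between 60.5% and 66.6% of probes were well above background on the M arrays, between 66.2% and 72.3% on the T arrays and between 69.97% and 78.7% on the Ctrl arrays. The 3 T arrays were on a slide of their own, so slide and co-culture in the lower chamber cannot be told apart, while the M and Ctrl arrays shared a slide. Ctrl3 stood apart from its group. Across all probes with a value on every array it correlated with M2 at 0.984, with Ctrl2 at 0.980 and with Ctrl1 at 0.975. Ctrl1 and Ctrl2 correlated at 0.988. Ctrl3 was the highest or lowest Ctrl array for 6 of the 7 measured receptors, all but Tlr6, and for Tlr2, Tlr4, Tlr7 and Tlr13 it lay further from both other Ctrl arrays than they lay from each other. All 8 macrophage markers looked at, Ptprc, Adgre1, Csf1r, Cd68, Itgam, Lyz2, Mertk and Fcgr1, were well above background on every array. Of 6 markers of resident peritoneal macrophages, 4 were so on all Ctrl arrays, 4 on all T arrays and 5 on all M arrays. Timd4, also among the 6, was above background on no array.

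The probes on which the results turn are 60 bases long and are shown because each stands for its receptor. Positions are those of the deposited files on build mm9, all on the minus strand except Tlr13 and Tlr4. The Tlr6 probe lies at chr5:65344365-65344424, the Tlr13 probe at chrX:103355773-103355832 and the Tlr2 probe at chr3:83640344-83640403. Tlr4 has a probe at chr4:66503470-66503529 and another, 86607 bases further on, at chr4:66590077-66590136. Tlr7 has the probe that stands for it at chrX:163742863-163742922 and another 283 bases away at chrX:163743146-163743205.
Tlr6 A_52_P117393: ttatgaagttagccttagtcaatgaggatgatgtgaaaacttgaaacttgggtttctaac
Tlr13 A_55_P2048279: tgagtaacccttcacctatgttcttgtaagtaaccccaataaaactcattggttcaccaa
Tlr2 A_51_P452629: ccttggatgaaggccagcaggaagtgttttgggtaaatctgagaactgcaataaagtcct
Tlr4 A_66_P124806: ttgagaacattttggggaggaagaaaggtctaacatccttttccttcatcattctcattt
Tlr4 A_55_P2076390: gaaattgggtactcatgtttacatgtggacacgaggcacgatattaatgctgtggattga
Tlr7 A_55_P2050932: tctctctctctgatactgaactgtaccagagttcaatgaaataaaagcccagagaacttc
Tlr7 A_55_P2129047: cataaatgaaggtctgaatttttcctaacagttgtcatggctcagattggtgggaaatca

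Promoter windows from 250 bases before to 50 bases after the start site were matched for 8 of the 10 receptors in RefSeq on GRCm38.p6. They were searched on both strands for GAGGAA (a core bound by PU.1, the myeloid transcription factor), TGANTCA (AP-1), GGGANTTTC (the start of a common NF-kB site) and GAAANNGAA (the core of the interferon-stimulated response element). Of 32851 windows of this length in the table, 28.3% held GAGGAA, 7.81% TGANTCA, 1.11% GGGANTTTC and 8.56% GAAANNGAA. The windows of Tlr13 (chrX:106143025-106143324, plus strand), of Tlr6 (chr5:64959117-64959416, minus strand) and of Tlr9 (chr9:106222348-106222647, plus strand) are shown, since Tlr13 and Tlr6 were the receptors that rose most and Tlr9 did not rise. Capitals mark the matches.
Tlr13 promoter: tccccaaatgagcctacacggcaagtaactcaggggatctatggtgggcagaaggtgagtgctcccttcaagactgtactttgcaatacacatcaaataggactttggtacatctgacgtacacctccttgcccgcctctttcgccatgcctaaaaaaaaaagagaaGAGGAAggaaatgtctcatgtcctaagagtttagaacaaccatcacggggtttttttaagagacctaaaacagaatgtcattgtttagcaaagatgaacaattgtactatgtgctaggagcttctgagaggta
Tlr6 promoter: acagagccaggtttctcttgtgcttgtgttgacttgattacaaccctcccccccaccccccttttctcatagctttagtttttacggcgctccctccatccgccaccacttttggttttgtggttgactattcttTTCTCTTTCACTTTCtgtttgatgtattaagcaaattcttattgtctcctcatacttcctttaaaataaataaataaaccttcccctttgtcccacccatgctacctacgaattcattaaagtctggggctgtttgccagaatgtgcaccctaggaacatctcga
Tlr9 promoter: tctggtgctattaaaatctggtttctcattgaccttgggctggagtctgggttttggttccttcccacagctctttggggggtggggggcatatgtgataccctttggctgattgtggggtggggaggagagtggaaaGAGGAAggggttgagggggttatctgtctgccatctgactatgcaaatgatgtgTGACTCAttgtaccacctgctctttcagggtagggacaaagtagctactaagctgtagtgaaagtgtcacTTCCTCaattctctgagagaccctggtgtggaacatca
Positions are those of the first base of a match, counted from the start site as 0. The Tlr13 window held GAGGAA at -83. The Tlr6 window held 2 overlapping matches to GAAANNGAA on the opposite strand at -115 and -109, and a second Tlr6 window held none of the 4 motifs. The Tlr9 window held GAGGAA at -112 and on the opposite strand at 12, and TGANTCA, which reads alike on both strands, at -58. No matches of different motifs overlapped. Matches describe the letters of these windows and say nothing of binding.

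Of the 10 receptors, 7 passed the filter, which kept a probe that was well above background throughout 1 or more of the groups: Tlr1, Tlr2, Tlr4 and Tlr6 of the 5 surface receptors and Tlr7, Tlr9 and Tlr13 of the 5 endosomal ones. Each of the 7 was above background on all 9 arrays. Tlr3 and Tlr5 were above background on none of the 9 arrays. Tlr8 was above background on Ctrl1 and Ctrl2 by a probe that read -4.85 and -5.57, and on Ctrl1 alone by its other probe, and it was on no M or T array. Tests were run with limma on all 18273 genes that passed the filter, and adjusted p-values (Benjamini-Hochberg) are over all of them. In RNA of bulk samples, fewer cells that carry a receptor and less of its RNA per cell cannot be told apart.

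**Figure D1:**
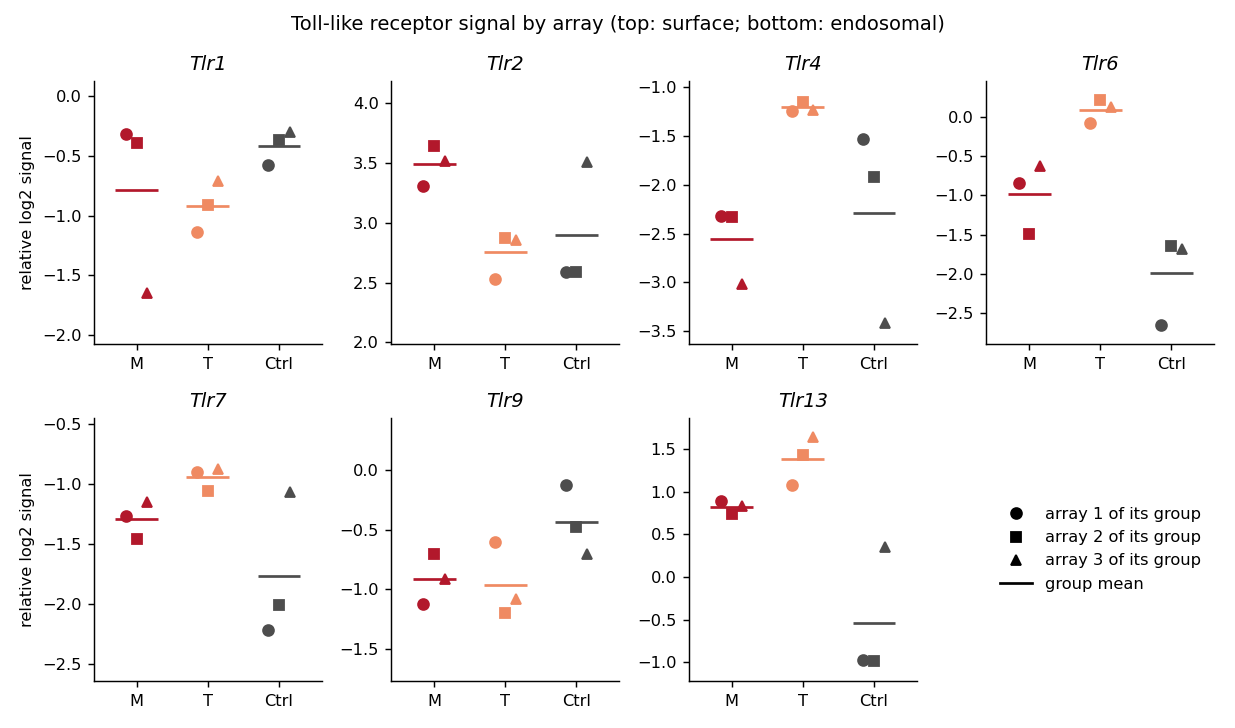
Relative log2 signal (y axis) of the 7 measured receptors on each array, in groups M, T and Ctrl (x axis), with surface receptors on top and endosomal receptors below. Points are arrays and lines are group means of 3 arrays. Tlr6 and Tlr13 are lowest in Ctrl and highest in T, and the Ctrl3 triangle lies away from Ctrl1 and Ctrl2 for Tlr2, Tlr4, Tlr7 and Tlr13.

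Among the surface receptors Tlr6, which pairs with Tlr2 to bind diacylated lipopeptides, was higher in both co-culture groups. Its relative log2 signal was -0.84, -1.49 and -0.63 in M, -0.08, 0.21 and 0.12 in T, and -2.65, -1.65 and -1.68 in Ctrl, each in the order of the array numbers. The 3 groups did not overlap. T exceeded Ctrl by 2.08 ± 0.30 on the log2 scale (SE, n = 3 per group), which is 4.23-fold (95% interval 1.41 to 2.75 on the log2 scale, limma adjusted p = 0.000683). M exceeded Ctrl by 1.01 ± 0.30, or 2.01-fold (limma adjusted p = 0.0393), and was 2.11-fold below T, with a difference of -1.07 ± 0.30 (limma adjusted p = 0.0262). In all 24 other settings tried, the T against Ctrl difference lay between 1.75 and 2.50 and stayed below the threshold of 0.05. The M against Ctrl call was less stable: it ended in 11 of 23 settings, among them the fit to the M and Ctrl arrays alone, which share a slide (limma adjusted p = 0.0782), and the fits without Ctrl1 (difference 0.68, adjusted p = 0.124) and without M3 (0.83, adjusted p = 0.133). The M against T call ended in 5 of 23 settings: quantile normalization, the deposited table, and the fits without M2, T2 or T3 (adjusted p from 0.0564 to 0.0895).

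Tlr2, the shared partner of Tlr1 and Tlr6, was not called in any comparison. Its relative log2 signal was 3.31, 3.64 and 3.52 in M, 2.53, 2.87 and 2.86 in T, and 2.59, 2.59 and 3.51 in Ctrl. The M arrays lay above all T arrays, while Ctrl overlapped both groups, with Ctrl3 among the M values. M minus T was 0.73 ± 0.26 (limma adjusted p = 0.0607), M minus Ctrl 0.59 ± 0.26 (adjusted p = 0.113) and T minus Ctrl -0.14 ± 0.26 (adjusted p = 0.674). The M against T difference passed the threshold in 7 of 23 other settings, such as quantile normalization (adjusted p = 0.0331) and the fit to those groups alone (adjusted p = 0.0128). The M against Ctrl difference was 0.90 without Ctrl3 (adjusted p = 0.00427) and -0.02 against Ctrl3 alone (adjusted p = 0.965). The Tlr2 probe was printed at 10 spots per array, whose coefficient of variation lay between 3.04% and 13.0%.

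Tlr4, the lipopolysaccharide receptor, was lower in M than in T. Its relative log2 signal was -2.32, -2.33 and -3.02 in M, -1.24, -1.15 and -1.23 in T, and -1.53, -1.92 and -3.42 in Ctrl. The T arrays lay within 0.09 of each other and above every other array, while the Ctrl arrays spread over 1.89. M minus T was -1.35 ± 0.42, or 2.55-fold lower in M (limma adjusted p = 0.0386), and this call ended in 9 of 23 settings, with adjusted p up to 0.271. T minus Ctrl was 1.08 ± 0.42 and did not pass (limma adjusted p = 0.0570). It passed with the replicate number as a block (adjusted p = 0.0241), with median scaling (difference 1.51, adjusted p = 0.00604) and without Ctrl1 (1.46, adjusted p = 0.0215), while without Ctrl3 it was 0.52 (adjusted p = 0.101). M minus Ctrl was -0.27 ± 0.42 (95% interval -1.20 to 0.66, adjusted p = 0.648). Its sign depended on the Ctrl arrays kept: it was -0.83 without Ctrl3 (adjusted p = 0.0244), 0.11 without Ctrl1 (adjusted p = 0.868) and 0.86 against Ctrl3 alone (adjusted p = 0.166).

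The 2 spots of this Tlr4 probe differed on M1 and M3, at 439 and 1050 signal units on M1 and at 193 and 557 on M3 (coefficients of variation of 58.0% and 68.8%), against 1.28% to 18.6% on the other arrays. The other Tlr4 probe, designed on an Ensembl transcript, was above background on M3 alone. It gave no second measurement of the difference.

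Tlr1, the other partner of Tlr2, was not called in any comparison. Its relative log2 signal was -0.32, -0.39 and -1.65 in M, -1.14, -0.91 and -0.71 in T, and -0.58, -0.37 and -0.30 in Ctrl. All T arrays lay below all Ctrl arrays, and M3 lay below both groups. T minus Ctrl was -0.50 ± 0.32 (95% interval -1.22 to 0.21, limma adjusted p = 0.226), and -0.50 with an adjusted p of 0.0408 when the T and Ctrl arrays alone were fitted with the replicate number as a block. Tlr1 and Tlr6 lie near each other on chromosome 5, the Tlr1 probe at chr5:65316115-65316174. In T minus Ctrl the Tlr6 interval lay above 0 and the Tlr1 interval spanned it.

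Among the endosomal receptors Tlr13, which binds bacterial ribosomal RNA in mice, was higher in both co-culture groups. Its relative log2 signal was 0.89, 0.74 and 0.83 in M, 1.08, 1.43 and 1.64 in T, and -0.98, -0.99 and 0.35 in Ctrl. The 3 groups did not overlap, and Ctrl3 lay between the other Ctrl arrays and M. T exceeded Ctrl by 1.92 ± 0.33, or 3.79-fold (95% interval 1.19 to 2.66, limma adjusted p = 0.00172), and M exceeded Ctrl by 1.36 ± 0.33, or 2.56-fold (limma adjusted p = 0.0190). M minus T was -0.56 ± 0.33 (adjusted p = 0.245). The T against Ctrl call held in all 24 settings, with the difference at 1.03 when Ctrl3 was the only Ctrl array and between 1.70 and 2.42 in the others. The M against Ctrl call held in the fit to the arrays of that slide alone (adjusted p = 0.0430) and ended in 6 of 23 settings, among them without Ctrl1 (1.14, adjusted p = 0.0715), without Ctrl2 (1.13, adjusted p = 0.0776), without M1 (adjusted p = 0.0613) and without M3 (adjusted p = 0.0628). It was 0.47 (adjusted p = 0.365) with Ctrl3 as the only Ctrl array.

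Tlr7, the receptor for single-stranded RNA, was higher in T than in Ctrl by the probe that stands for it. Its relative log2 signal was -1.27, -1.46 and -1.15 in M, -0.90, -1.06 and -0.87 in T, and -2.22, -2.01 and -1.07 in Ctrl. The lowest T array lay just above Ctrl3, and the other Ctrl arrays lay further below. T exceeded Ctrl by 0.82 ± 0.27, or 1.77-fold (limma adjusted p = 0.0322), M minus Ctrl was 0.47 ± 0.27 (adjusted p = 0.212) and M minus T was -0.35 ± 0.27 (adjusted p = 0.385). The T against Ctrl call ended in 9 of 24 settings, including the mean of both tested probes (0.54, adjusted p = 0.106), the fit to T and Ctrl alone (adjusted p = 0.0575) and each of the fits without Ctrl1, Ctrl2, T1, T2 or T3 (adjusted p from 0.0655 to 0.115). The difference was 0.13 with Ctrl3 as the only Ctrl array.

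The neighbouring Tlr7 probe read -2.45, -3.11 and -2.54 in M, -2.39, -2.50 and -2.05 in T, and -3.27 and -2.45 on Ctrl1 and Ctrl3, its Ctrl2 spot having been left out as an outlier. By this probe Ctrl3 lay among the T and M values, T minus Ctrl was 0.54 ± 0.31 and it was not called (adjusted p = 0.176, over all probes tested). The remaining Tlr7 probe, 4351 bases from the first, was above background on Ctrl1 and Ctrl2 alone, at -5.67 and -6.06. Those are also the arrays on which Tlr8 was above background. They had the lowest detection floors: the lowest signal well above background was -6.65 on Ctrl1 and -6.67 on Ctrl2. On Ctrl3 it was -5.97, on the T arrays -6.46 to -6.06 and on the M arrays -5.72 to -5.40. The part of this floor in the detection was not tested.

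**Figure D2:**
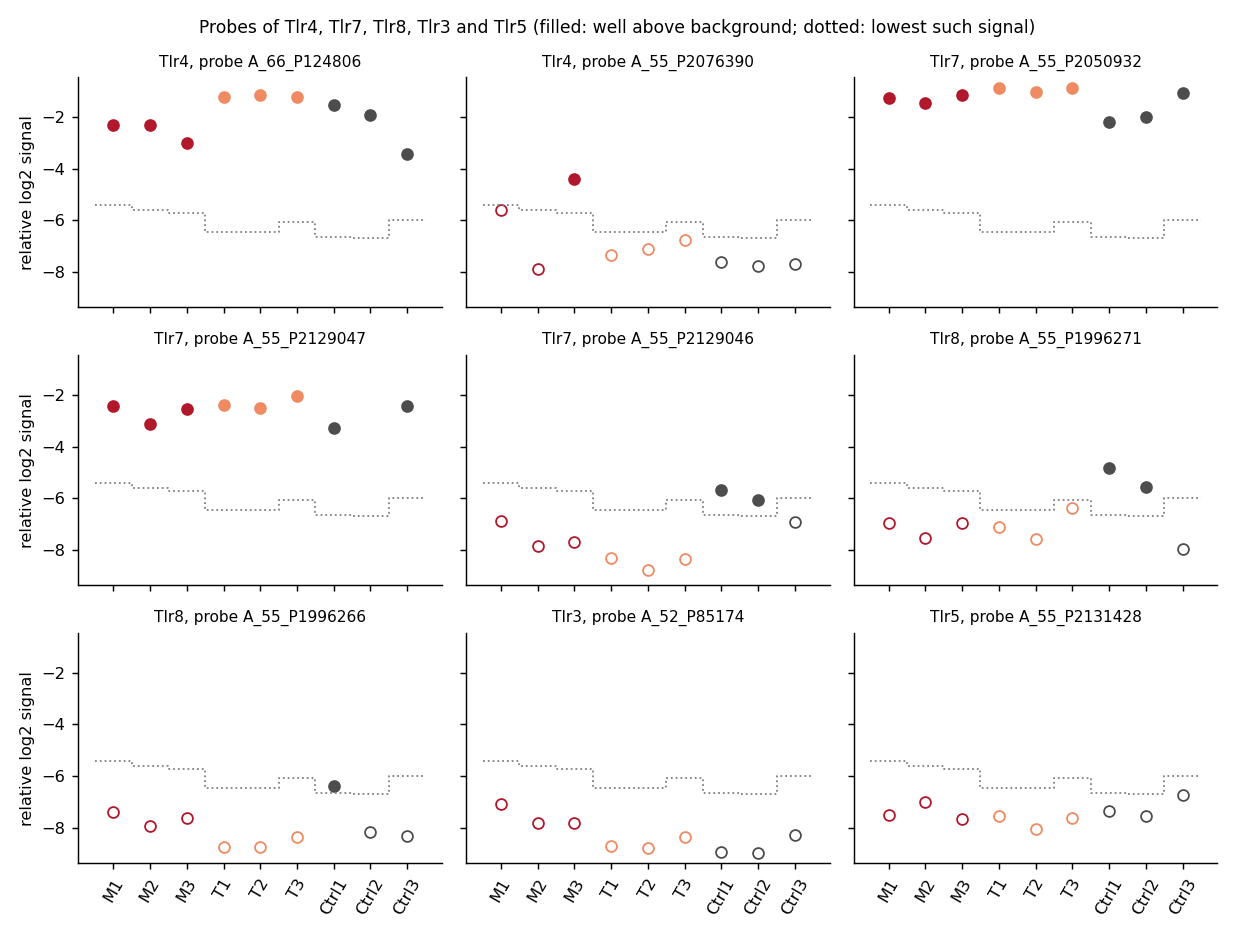
Relative log2 signal (y axis) on each array (x axis) for the probes of Tlr4, Tlr7 and Tlr8 and for the undetected Tlr3 and Tlr5. Filled points were well above background and the dotted line is the lowest such signal of each array. Tlr3 and Tlr5 have no filled point, and Tlr8 has filled points on Ctrl1 and Ctrl2 alone.

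Tlr9, the receptor for unmethylated DNA, was not called in any comparison. Its relative log2 signal was -1.12, -0.70 and -0.91 in M, -0.60, -1.20 and -1.08 in T, and -0.13, -0.48 and -0.70 in Ctrl. Ctrl3 was as low as the highest M array, and the T and Ctrl arrays overlapped. T minus Ctrl was -0.52 ± 0.22 (95% interval -1.02 to -0.03, limma adjusted p = 0.0804) and M minus Ctrl was -0.47 ± 0.22 (adjusted p = 0.139). The T against Ctrl difference passed in 4 of 24 settings, among them without Ctrl3 (-0.65, adjusted p = 0.0396), without T1 (-0.70, adjusted p = 0.0347) and with the T and Ctrl arrays fitted with the replicate number as a block (adjusted p = 0.0397).

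Counted together, 3 of the 7 measured receptors rose and none fell in T against Ctrl, where 17.6% of all genes tested rose and 27.2% fell (44.7% in either direction). In M against Ctrl 2 of 7 rose and none fell, where 12.3% of all genes rose and 11.1% fell (23.4% together). In M against T none rose and 2 of 7 fell, where 14.7% rose and 10.8% fell (25.5% together). Arrays did not overlap between groups for 5 of 7 receptors in T against Ctrl (53.5% of all genes), 3 of 7 in M against Ctrl (36.3%) and 5 of 7 in M against T (48.3%), so non-overlap was near the background. These comparisons share arrays and are not independent of each other.

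The median difference of all genes was -0.14 in T against Ctrl, -0.09 in M against Ctrl and 0.11 in M against T, and became 0.28, 0.21 and -0.01 with median scaling. Of all calls in T against Ctrl 66.0% were rises with median scaling and 39.2% with the 75th percentile. In M against Ctrl the shares were 74.5% and 52.5%, and in M against T 44.7% and 57.7%. Relative to the median of all genes, the T minus Ctrl difference was 2.22 for Tlr6, 2.06 for Tlr13, 0.96 for Tlr7 and 1.22 for Tlr4 under both scalings. The scalings differ only by a constant per array, so these values had to agree. With median scaling the signs turned for Tlr2 in T against Ctrl, for Tlr4 in M against Ctrl and for Tlr9 in M against T. None of these differences was called.

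**Figure D3:**
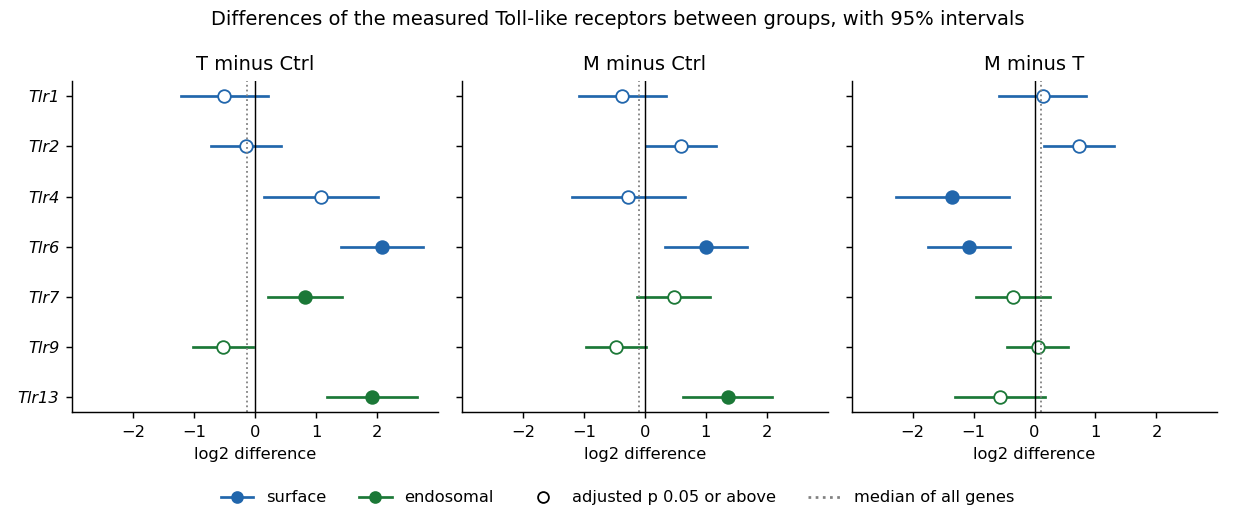
Log2 differences (x axis) of the 7 measured receptors, 1 panel per comparison, with 95% intervals. Filled points passed an adjusted p of 0.05 and the dotted line is the median of all genes. Called receptors are Tlr6, Tlr7 and Tlr13 in T minus Ctrl, Tlr6 and Tlr13 in M minus Ctrl, and Tlr4 and Tlr6 in M minus T.

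In neither class did every measured receptor pass the test. Of the surface receptors 1 of 4 rose in T against Ctrl, with a median difference of 0.47 and a range of -0.50 to 2.08, and of the endosomal receptors 2 of 3 rose, with a median of 0.82 and a range of -0.52 to 1.92. In M against Ctrl 1 of 4 and 1 of 3 rose, with medians of 0.16 and 0.47, and in M against T 2 of 4 and none of 3 fell, with medians of -0.47 and -0.35. Over all genes 17.6% rose in T against Ctrl, 12.3% rose in M against Ctrl and 10.8% fell in M against T. Per array, the mean of the 4 surface receptors minus the mean of the 3 endosomal receptors was 0.46, 0.33 and -0.04 in M, 0.16, 0.53 and 0.36 in T, and 0.57, 0.82 and 0.00 in Ctrl. The groups overlapped. Its group mean differed by -0.11 between T and Ctrl, by -0.21 between M and Ctrl and by -0.10 between M and T, each less than the pooled SD of 0.30. Against Ctrl3 alone the signs of the first and second differences turned, to 0.35 and 0.25. Leaving out a single array also moved them: T minus Ctrl was 0.07 without Ctrl2 and -0.34 without Ctrl3, M minus Ctrl was -0.03 without Ctrl2 and -0.44 without Ctrl3, and M minus T was 0.04 without M3.

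**Figure D4:**
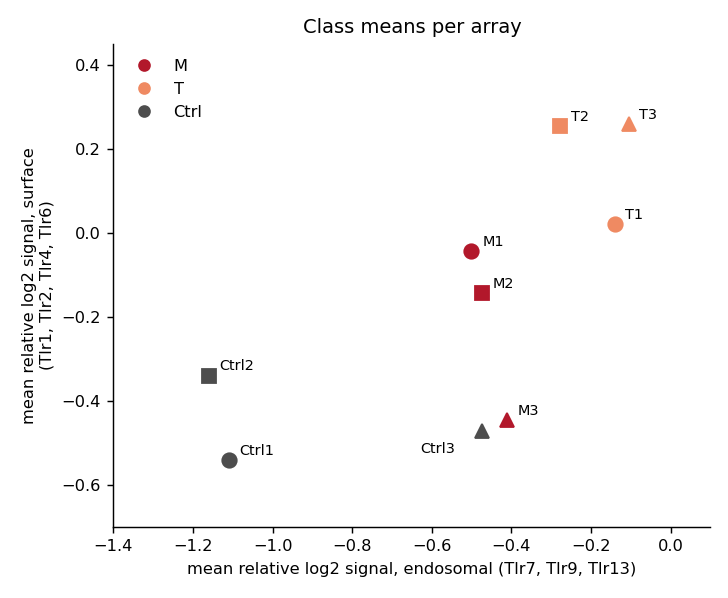
Mean relative log2 signal of the 3 measured endosomal receptors (x axis) against that of the 4 measured surface receptors (y axis), 1 point per array. The T arrays are highest on the endosomal axis (-0.28 to -0.11), Ctrl1 and Ctrl2 are lowest (-1.11 and -1.16), and Ctrl3 (-0.47) lies among the M arrays (-0.50 to -0.41).

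Across the 9 arrays, which share groups, slides and the position of Ctrl3, the receptors fell into unlike patterns. Tlr13 ran with Tlr7 (Pearson r = 0.92) and with Tlr6 (0.88), and Tlr6 ran with Tlr7 (0.83). Tlr9 ran against all of these, with r of -0.84 to Tlr13, -0.80 to Tlr6 and -0.75 to Tlr7. Tlr2 and Tlr4 ran against each other (-0.80), and the highest r of Tlr1 with another receptor was 0.19. Of 18184 named genes, the 2 most like each receptor over the 9 arrays were Man1a (r = 0.997) and Leprot for Tlr6, Calr4 (0.990) and Fam43a for Tlr13, Suox (0.993) and Zfp689 for Tlr2, Trim7 (0.969) and Nos2 for Tlr4, Poll (0.983) and Nptn for Tlr7, Meaf6 (0.994) and Slc17a5 for Tlr9, and Poglut2 (0.956) and Gabpb1 for Tlr1. With 9 arrays in 3 groups such values describe these arrays only.

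Tlr11, a receptor for parasite profilin in mice that is outside the 10, fell in T against Ctrl by 1.08 ± 0.28 on the log2 scale (limma adjusted p = 0.0121), and its level was -3.16 ± 0.46 in T and -2.09 ± 0.37 in Ctrl (SD, n = 3 each). This call ended without Ctrl1 and Ctrl2 (-0.66, adjusted p = 0.242) and without T3 (-0.82, adjusted p = 0.0523). Tlr12 did not pass the filter.

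The other genes of the pathway rose more often than they fell in both co-culture groups. Of 67 listed co-receptors, chaperones, proteases, adaptors, kinases, inhibitors and transcription factors, 66 were tested. In T against Ctrl 23 rose and 4 fell, which is 34.8% and 6.06% beside 17.6% and 27.2% of all genes. In M against Ctrl 16 rose and 3 fell (24.2% and 4.55%, beside 12.3% and 11.1% of all genes), and in M against T 5 rose and 12 fell (7.58% and 18.2%, beside 14.7% and 10.8%). The rises of each comparison include Ctsk, which passed the filter through M alone. Over the 64 genes well above background on all 9 arrays, 22 rose and 4 fell in T against Ctrl. There, 15 rose and 3 fell in M against Ctrl, and 4 rose and 12 fell in M against T. The 16 in M against Ctrl became 27 without Ctrl3, 8 without Ctrl1 or M3, 9 without Ctrl2 or M1 and 10 without T2 or T3. They became 23 with median scaling, 32 with array weights and 7 with the deposited table. The 23 rises in T against Ctrl became 35, 36 and 14 in these settings, in the same order. Rises outnumbered falls against Ctrl, and falls outnumbered rises in M against T, under every setting run. With Ctrl3 as the only Ctrl array the counts were 10 and 2 in T against Ctrl and 6 and 3 in M against Ctrl, and in the fit to the M and Ctrl arrays alone they were 8 and 3.

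Of 5 tested co-receptors 4 rose and 1 fell in T and in M against Ctrl, beside rises of 17.6% and 12.3% of all genes. With Ctrl3 as the only Ctrl array 2 rose and 1 fell in M, and 1 rose and 1 fell in T. Cd36, a scavenger receptor that hands ligands to Tlr2 and Tlr6, was at 1.47 ± 0.35 in M, -0.43 ± 0.10 in T and -1.14 ± 0.36 in Ctrl (SD, n = 3 each), with no overlap between groups. M exceeded Ctrl by 2.61 ± 0.23, or 6.10-fold (limma adjusted p = 3.22e-05), and T by 1.90 ± 0.23 (adjusted p = 0.000269). T exceeded Ctrl by 0.71 ± 0.23 (adjusted p = 0.0319), a call that ended in 7 of 24 settings.

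Cd180, a receptor homologue that signals with Ly86 and restrains Tlr4 in macrophages, was at -1.94 ± 0.11 in M, -1.55 ± 0.10 in T and -3.31 ± 0.34 in Ctrl. It rose 2.59-fold in M (1.37 ± 0.20, limma adjusted p = 0.000924) and 3.40-fold in T (1.76 ± 0.20, adjusted p = 0.000136) against Ctrl. Its partner Ly86 fell by 1.30 ± 0.18 in M (adjusted p = 0.000729) and by 0.70 ± 0.18 in T (adjusted p = 0.0110) against Ctrl. The 2 genes, whose products act as a complex, thus moved in opposite directions.

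Ly96, which holds lipopolysaccharide for Tlr4, rose by 0.75 ± 0.16 in M (limma adjusted p = 0.00923) and by 0.43 ± 0.16 in T (adjusted p = 0.0463) against Ctrl, and the T call ended in 17 of 24 settings. Cd14, which delivers lipopolysaccharide to this complex, rose by 0.66 ± 0.19 in M (adjusted p = 0.0363) and by 0.68 ± 0.19 in T (adjusted p = 0.0172). The Cd14 call ended in 12 of 23 settings for M, the fit to the M and Ctrl arrays alone among them, and in 5 of 24 for T. Lbp, the serum protein that loads Cd14, did not pass the filter.

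Of 9 genes for folding and delivery of the receptors, 2 rose and 2 fell in T and 1 rose and 2 fell in M against Ctrl. Over all genes 17.6% rose and 27.2% fell in T, and 12.3% rose and 11.1% fell in M. Slc15a3, a transporter of the endolysosome membrane, rose 4.59-fold in M (2.20 ± 0.18, limma adjusted p = 1.91e-05) and 4.54-fold in T (2.18 ± 0.18, adjusted p = 2.25e-05), and both calls held in every setting run. Its relative Slc15a4, which Tlr7 and Tlr9 need to signal, rose by 0.72 ± 0.18 in T (adjusted p = 0.0106) and was lower in M than in T, with a difference of -0.83 ± 0.18 (adjusted p = 0.00840). Hsp90b1, the chaperone that folds most of these receptors, fell by 1.67 ± 0.22 in M (adjusted p = 0.000602) and by 0.66 ± 0.22 in T (adjusted p = 0.0357), the T call ending in 10 of 24 settings. Rab7b, a small GTPase that steers Tlr4 and Tlr9 to lysosomes, fell by 0.86 ± 0.19 in M (adjusted p = 0.0137) and by 0.72 ± 0.19 in T (adjusted p = 0.0145).

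Unc93b1, which carries the endosomal receptors out of the endoplasmic reticulum, was at 4.02 ± 0.16 in M, 3.80 ± 0.11 in T and 3.90 ± 0.14 in Ctrl, and its groups overlapped in each comparison. Its difference was 0.12 (95% interval -0.25 to 0.49) in M minus Ctrl and -0.10 (-0.47 to 0.27) in T minus Ctrl. Cnpy3, Cnpy4, Tmed7 and Ap3b1 were not called in any comparison.

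Among 5 endosomal proteases that can trim the receptors, Ctsk, which encodes cathepsin K, stood far from the rest. It was at 3.101 ± 0.245 in M, while it was well above background on 2 of 3 T arrays and on no Ctrl array. M was at least 740-fold above Ctrl, a bound set by the lowest signal well above background, with measured means of 3.101 in M and -8.34 in Ctrl. It passed the filter through M alone and its Ctrl readings were not above background, so no p-value is given for it. Ctss, encoding cathepsin S, was higher in M than in T by 0.66 ± 0.17 (adjusted p = 0.0178), a call that ended in 7 of 23 settings. Ctsb, Ctsl and Lgmn were not called in any comparison.

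Among 6 adaptors 1 rose and 1 fell in T against Ctrl, and 3 rose with median scaling, with quantile normalization, with array weights and without Ctrl3. Ticam2, which links Tlr4 to Ticam1, rose by 1.21 ± 0.25 in T against Ctrl (limma adjusted p = 0.00422), and Pik3ap1, an adaptor to phosphoinositide kinase, fell by 0.50 ± 0.16 (adjusted p = 0.0309), a call that ended in 8 of 24 settings, with a difference of -0.08 under median scaling. No adaptor was called in M against Ctrl. Myd88, used by nearly all of these receptors, was at 1.83 ± 0.04 in M, 1.93 ± 0.05 in T and 1.47 ± 0.34 in Ctrl, and its T minus Ctrl difference of 0.47 ± 0.19 did not pass (adjusted p = 0.0668). Tirap, which brings Myd88 to Tlr2 and Tlr4, was lower in M than in T, with a difference of -0.64 ± 0.16 (adjusted p = 0.0164), and this call ended in 5 of 23 settings. Over all genes 17.6% rose and 27.2% fell in T against Ctrl, and 23.4% were called in M against Ctrl. Of 16 kinases and ubiquitin ligases 2 rose in T against Ctrl, Ikbke by 1.26 ± 0.21 (adjusted p = 0.00137) and Tab3 by 0.97 ± 0.23 (adjusted p = 0.00814), and none was called in M against Ctrl. The count in T was 8 with median scaling, 9 with array weights and 8 without Ctrl3, and in M it was 7 with array weights and 4 without Ctrl3.

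Of 15 inhibitors of the pathway 10 rose and none fell in T against Ctrl, where 17.6% of all genes rose, with a median of 0.66 beside -0.14 over all genes. The deposited table gave 6 rises, and array weights gave 11 rises and 2 falls. Dusp1, a phosphatase of MAP kinases, was at 0.75 ± 0.04 in M, 1.58 ± 0.06 in T and -0.14 ± 0.10 in Ctrl. It rose 3.28-fold in T (1.71 ± 0.15, limma adjusted p = 2.71e-05) and 1.85-fold in M (0.89 ± 0.15, adjusted p = 0.00251) against Ctrl. Irak3, a kinase-dead relative that blocks signalling below Myd88, was at -0.82 ± 0.42 in M, -1.48 ± 0.07 in T and -2.82 ± 0.38 in Ctrl (SD, n = 3 each). It rose against Ctrl in M (95% interval of the difference 1.44 to 2.56, limma adjusted p = 0.000398) and by 1.34 ± 0.25 in T (adjusted p = 0.00265). Atf3, a transcriptional repressor of inflammatory genes, rose by 0.91 ± 0.19 in M (adjusted p = 0.00999) and by 1.33 ± 0.19 in T (adjusted p = 0.000681). In M against Ctrl 5 of 15 rose and none fell, where 12.3% of all genes rose, and the rises were 8 without Ctrl3 and 3 without Ctrl1, Ctrl2, M3, T2 or T3. With Ctrl3 as the only Ctrl array 5 of 15 rose in T and 2 of 15 in M.

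In M against T 1 inhibitor rose and 5 fell, where 14.7% of all genes rose and 10.8% fell. Sigirr, a receptor that dampens interleukin and Toll-like signalling, was at 0.28 ± 0.08 in M and 1.79 ± 0.10 in T, a difference of -1.51 ± 0.23 (limma adjusted p = 0.00102). Il1rl1, which encodes the interleukin-33 receptor chain, was higher in M than in T by 1.12 ± 0.21 (adjusted p = 0.00391). Rnf216, a ubiquitin ligase that targets Toll-like receptors, was lower in M than in T, with a difference of -0.91 ± 0.19 (adjusted p = 0.00644).

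Of 10 transcription factors that the receptors activate, 3 rose in T and 5 rose in M against Ctrl, where 17.6% and 12.3% of all genes rose, and none fell. The 5 in M became 0 without Ctrl1, M1 or M3, with the deposited table and in the fit to the M and Ctrl arrays alone, 1 without Ctrl2 or M2, 2 without T2 or T3, 3 without T1 and 7 without Ctrl3. Rel, an NF-kB subunit, rose by 1.70 ± 0.22 in T (limma adjusted p = 0.000373) and by 0.80 ± 0.22 in M (adjusted p = 0.0314), and its M minus T difference was -0.91 ± 0.22 (adjusted p = 0.0145). The call in T held in every setting run, the call in M against Ctrl ended in 7 of 23 settings and that in M against T in 5 of 23. Irf7, which acts below Tlr7 and Tlr9, rose by 0.85 ± 0.18 in T (adjusted p = 0.00481). Against Ctrl3 alone 1 of 10 rose in T and none in M.

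**Figure D5:**
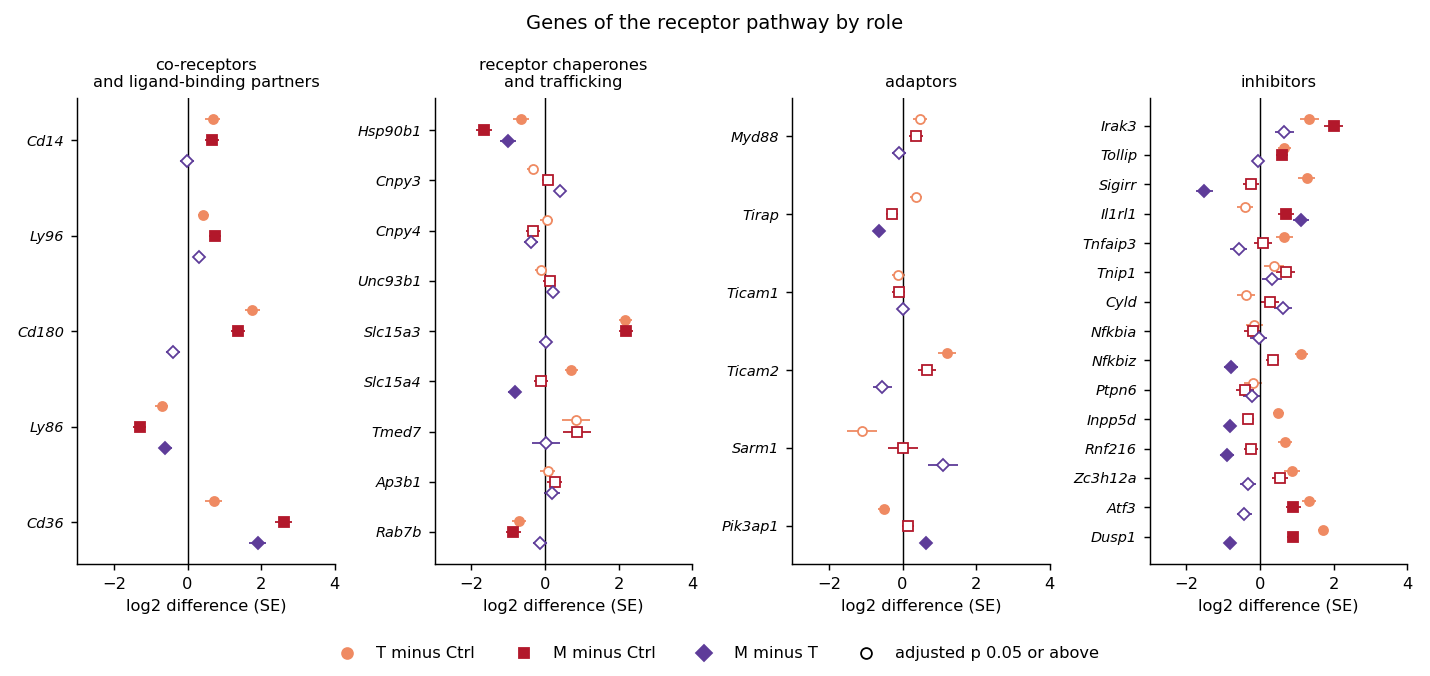
Log2 differences (x axis, with SE) of co-receptors, chaperones, adaptors and inhibitors in the 3 comparisons. Filled symbols passed an adjusted p of 0.05. Cd36 lies at 2.61 in M minus Ctrl, Slc15a3 at 2.20 and 2.18 against Ctrl, and Unc93b1 near 0 in each comparison.

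Other cells that carry these receptors were looked for by their markers, given as sums of the linear signals of a list relative to the 75th percentile of the array. The 6 plasmacytoid dendritic cell markers summed to 36.8 to 49.4 in M, 42.7 to 63.6 in T and 47.8 to 60.1 in Ctrl. The 6 conventional dendritic cell markers, Clec9a above background on none, summed to 0.505 to 0.682 in M, 0.487 to 0.629 in T and 0.615 to 1.30 in Ctrl. The 10 neutrophil markers summed to 19.6 to 27.2 in M, 18.0 to 23.3 in T and 15.4 to 25.3 in Ctrl, and 10 epithelial markers of carcinoma cells to 1.05 to 1.46 in M, 1.65 to 1.77 in T and 1.35 to 2.50 in Ctrl. Single markers moved within these sums. Of 6 plasmacytoid markers 4 fell in M against Ctrl, with a median of -1.19, and 1 rose and 1 fell in T against Ctrl. That median includes Ccr9, which was above background on 2 Ctrl arrays and on no M array. Its fitted difference there is not a measured one. Of 8 tested neutrophil markers 3 rose in M against Ctrl, 1 rose and 4 fell in T against Ctrl, and 4 rose in M against T. Of 8 tested epithelial markers 1 fell in M against Ctrl, 2 rose and 5 fell in T against Ctrl, with differences from -1.68 to 3.63, and 2 rose and 2 fell in M against T, from -4.32 to 1.26. Of 4 tested conventional dendritic cell markers 2 fell in T against Ctrl. Over all genes 17.6% rose and 27.2% fell in T against Ctrl, and 12.3% and 11.1% in M against Ctrl. In M against T the shares were 14.7% and 10.8%. The part of these other cells in the receptor differences was not tested.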

How the data were processed

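RNA of 9 sorted macrophage samples was labelled with Cy3 and hybridised to 1-colour arrays, per the labels' protocols. The authors extracted spot intensities with Feature Extraction 10.7.3.1 from Agilent (version per the submitters' processing notes). Per the file headers, the processed signal intensity of each deposited file had its background subtracted and was left unscaled between arrays. The value table that the authors deposited beside the scanner files mixes linear intensity and log2 columns: the column headed M1 matched the M2 scanner file within 0.001 and the reverse, its T2 column equalled none, and it served as an alternative after each column's 75th percentile was set to 0. No column of it is a ratio, so it has no direction to settle.

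From the scanner files, control and outlier spots (147 to 299 per array) were left out, no saturated spot was found, replicate spots were averaged per probe, and log2 minus the array's 75th percentile was taken. Of 55681 probes, 26762 were named by accession through RefSeq (GRCm38.p6), 5904 kept the array's name and 23015 had no symbol. A probe was tested if 1 or more groups had it well above background throughout, and the brightest such probe stood for its gene. All 9 arrays entered a single limma 3.58.1 fit (R 4.3.3, lmFit and eBayes), whose SE pools the spread of all groups. The number of arrays limits the precision. On simulated data for T against Ctrl (18191 genes), genes raised or lowered by 2 log2 units were recovered at 84% and 90%, by 1 unit at 38% and 30%, and 8 of 129 calls were false. Far fewer genes were changed there than were called in the data, where T against Ctrl gave 8177 calls among 18273 genes. The recovery rates describe that simulated setting and not the data.

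Deviations of same-numbered T and Ctrl arrays from their group means correlated at r = 0.55, 0.12 and 0.38. Same-numbered M arrays gave -0.27, -0.15 and 0.02 with T, and -0.27, -0.19 and 0.02 with Ctrl. Arrays of unlike number were not compared, so these values cannot settle whether the numbers stand for pairs. The main fit used no pairs, and the replicate number as a block was tried as an alternative. Alternatives were the scaling, background correction, filter, probe rule, deposited table, array weights, prior, samples fitted, replicate block and leaving out each array. The fits without Ctrl1 and Ctrl2, without M1 and M3, and with a block on T and Ctrl arrays alone were chosen after seeing the data.

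The receptors and lists were chosen with earlier results of these data known. Named were all receptors, all co-receptors, chaperones and adaptors, up to 3 called genes with the largest difference per other list and comparison, and the 2 genes most correlated with each receptor. Genes named as uncalled or below the filter (Ctsb, Ctsl, Lgmn, Tlr12) complete their lists. T and NK cell and mast cell markers were also read. The result of a further marker list is not reported here. The 8 T and NK cell markers summed to 1.26 to 1.61 in M, 1.16 to 1.43 in T and 1.36 to 3.02 in Ctrl, and the 5 mast cell markers to 0.122 to 0.163 in M, 0.335 to 0.363 in T and 0.172 to 0.244 in Ctrl. The 6 resident macrophage markers summed to 3.13 to 3.35 in M, 2.49 to 2.78 in T and 1.52 to 2.16 in Ctrl.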

Additional observations from a re-analysis of the deposited data

How the results depend on the processing

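No called receptor reversed its direction under any alternative run, and the T against Ctrl calls of Tlr6 and Tlr13 held in all of them. Leaving out each array in turn gave 2 to 3 receptors higher and 0 to 2 lower in T against Ctrl, 0 to 4 higher and 0 to 2 lower in M against Ctrl, and 0 to 1 higher and 0 to 3 lower in M against T. The highest of these counts, the 3 higher in T against Ctrl apart, came without Ctrl3. Tlr8 then also passed the filter, through Ctrl1 and Ctrl2 alone, and was 1 of the 2 lower in T against Ctrl and in M against Ctrl. It was above background on no T or M array, so its fitted fall is not a measured difference. Without Ctrl1 and Ctrl2 the count in M against Ctrl was 0, in M against T 1 was higher, and the surface minus endosomal difference was 0.35 in T against Ctrl and 0.25 in M against Ctrl. Without M1 and M3, 0 were higher in M against Ctrl and 1 was lower in M against T. Array weights gave 1 lower in T against Ctrl, 4 higher and 2 lower in M against Ctrl, and 1 higher in M against T. The deposited table gave 1 higher in M against Ctrl and 0 lower in M against T, and the fit to the compared groups alone gave 1 higher in M against Ctrl and 1 higher in M against T. In M against T, 1 was also higher with normexp correction, with quantile normalization and with a trended robust prior, and quantile normalization left 1 lower. Without a filter 1 was higher too, but it was a receptor that had not passed the filter and none of the measured ones. The causes of these changes were not tested, and the fits that left out arrays also had fewer of them.

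With the replicate number as a block, 4 receptors were higher and 0 lower in T against Ctrl, 2 higher and 0 lower in M against Ctrl, and 0 higher and 2 lower in M against T. Tlr4 was added in T against Ctrl, and with the T and Ctrl arrays alone in the blocked fit 4 were higher and 2, Tlr1 and Tlr9, lower. The block changed no other receptor call. Among the pathway genes named by rule it ended the calls of Cd36 (adjusted p = 0.0545), Ly96 (0.0878), Hsp90b1 (0.0595) and Pik3ap1 (0.0526) in T against Ctrl, of Cd14 in M against Ctrl (0.0557), and of Ly86 (0.0671) and Ikbke (0.0527) in M against T. It added Sarm1, lower in T than in Ctrl (0.0309) and higher in M than in T (0.0480). Sarm1 was not well above background on all 9 arrays. Over all pathway genes it gave 19 higher and 3 lower in T against Ctrl, inhibitors 8 of 15 higher, 14 and 4 in M against Ctrl, and 7 and 10 in M against T. Slide, which equals scan, could not be fitted as a fixed or random block, since each group lies on a single slide. Signal over background limited Tlr3, Tlr5, Tlr8, the second probe of Tlr4 and the third of Tlr7, for which the main fit gave no difference. The fits without Ctrl3 and without a filter took in such receptors, whose T and M signals were not above background.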
